A study of Mus musculus with 4 samples.

Results

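The proteasome genes were examined in splenic CD4+CD25- T lymphocytes of db/db and db/+ mice. They were taken as every array feature whose annotated symbol was Psm, a letter from a to g and a number, which gave 74 features of 47 genes among 33709 gene features of 19087 genes. These genes encode the subunits of the proteasome, its activators and inhibitor, and the chaperones that assemble it. Features of Psme2 and Adrm1 were not among the annotated ones, and Pomp, whose name is not of this pattern, was read beside the members.

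The db/db mice were homozygous for the mutated leptin receptor gene Lepr and the db/+ mice kept 1 functional copy and are labelled wild type, both on the strain C57BL/6. The labels give neither age nor sex, and call the db/db phenotype leptin-deficient although the series names the receptor. Cells of both genotypes were stimulated for 12 h with antibodies against CD3 and CD28, and each group held 2 pools of 3 mice, each pool on a one-colour array of its own. Lepr is mutated in every cell of a db/db mouse, so the groups do not separate an effect within T cells from one of the animal they came from.

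The proteasome is the large protease that degrades proteins tagged with ubiquitin. Its core particle is a stack of rings of alpha and beta subunits, and 3 of the beta subunits, Psmb5, Psmb6 and Psmb7, carry the active sites. The regulatory cap binds, unfolds and feeds in the substrate. In lymphocytes and under interferon gamma the active subunits are replaced by Psmb8, Psmb9 and Psmb10, which make the immunoproteasome, whose products favour presentation of peptides on MHC class I. T cell activation raises protein synthesis and turnover, and proteasome genes are widely expressed in such cells.

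Some facts of the arrays touch all values below. The median raw intensity was 102 and 176 in the db/db pools and 254 and 151 in the db/+ pools. On 40 of 170 scan lines of the array and in shorter windows, runs of neighbouring spots departed between arrays by over 2 log2 units, and these misread stretches held 8242 gene features, or 24.5%, and 16 of the 74 proteasome features. With them left out, the correlation of log2 intensities over features (no independent units) was r = 0.995 for the db/db pools, 0.993 for the db/+ pools and 0.982 to 0.986 across groups. Of 10 T cell markers 6 had a feature outside the stretches and none of these lay at background, among them Cd3d, Cd3e, Cd3g and Cd4. Markers of other cells differed between the same pools. The summed intensity of 8 neutrophil markers out of 10 listed was 64530 and 68618 in db/db, against 7190 and 20050 in db/+. Among these only Mpo had a lower mean in db/db, with overlapping pools, and Cd177 lay at background. The sum of 3 macrophage and monocyte markers out of 8 was 23690 and 22292 in db/db, against 3005 and 7184 in db/+. It rested mostly on Lyz2, the brightest of the 3, and C1qb lay at background. For 5 of 6 CD8 and cytotoxic markers the sum was 45879 and 43941 in db/db, against 19105 and 29544 in db/+. For 6 T cell markers it was 79411 and 79622, against 40313 and 52845. Of these, Cd4 and Cd28 differed by 0.14 and -0.13 in log2, with overlapping pools. Thy1, Cd3e, Cd3d and Cd3g were higher in db/db by 1.53, 1.03, 0.88 and 0.56. The 7 B cell markers out of 8 summed to 18505 and 13057 in db/db and 7851 and 11350 in db/+, with Pax5 and Blk at background in all pools. The Y-linked gene Eif2s3y read 13.95 and 13.77 in the db/db pools, against 5.97 and 6.68 in the db/+ pools. Kdm5d, also Y-linked, read 12.16 and 12.20 in db/db, against 5.93 and 6.31 in db/+. Xist, a female-expressed gene, read 10.06 and 6.60 in db/db, against 14.33 and 13.88 in db/+. Genotype and the sex of the animals, as read from these genes, cannot be told apart. In bulk samples, fewer cells of a type and less RNA per cell cannot be told apart either. The part of these differences in the proteasome values was not tested.

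The comparison asked how the loss of the leptin receptor alters transcripts of stimulated T cells. Levels are normalized log2 intensities, fold changes are db/db over db/+ on the log2 scale, and where 2 adjusted p stand together the first is limma's over the whole set of 33709 gene features and the other, called the second fit, is limma's over the 25467 that remain without misread stretches. Each gene takes the value of the brightest of its remaining features. It was counted as background where both group means lay below 7.55, the median over gene features. Several features of 1 gene share the 4 arrays and do not replicate each other. With 2 pools a group the p-values rest on a spread pooled over features.

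Psmb8 and Psmb10, 2 of the 3 inducible catalytic subunits, rose in db/db by 1.73-fold and 1.88-fold in the fit without misread stretches. Psmg2, an assembly chaperone, fell there by 0.73 on the log2 scale. Among the 39 proteasome genes above background 2 were thus called higher, against 13% of all genes, and 1 lower, against 2.72%. None of these calls was made over all gene features, nor in either fit with replicate numbers as a block. No subunit of the constitutive core or the cap passed the threshold in the fit without misread stretches, in which the cap ATPase Psmc5 had an adjusted p of 0.0502 by limma. Psmc5 was called lower there with no background correction and when the arrays were normalized again without the stretches. Of the 26 core and cap genes above background 20 had a fold change below 0. This held for 33% of all genes above background and 48% of the brightest 1615 genes. Among the 20, Psma2, Psmb7, Psmd7 and Psmd14 lay between -0.03 and 0.00, and Psmb1 rested on 1 pool. Under median scaling and under cyclic loess 17 of the 26 were below 0. Psmb8, Psmb9 and Psmb10 together had a median log2 fold change of 0.79, the 26 core and cap genes had -0.17, and all 9048 genes above background had 0.20.

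Over all gene features, 1 of the 74 proteasome features was called, at an adjusted p below 0.05, against a background of 0.997% of features called in either direction, 0.578% higher and 0.418% lower. It was 1 of 3 features of Psma3, higher in db/db, and lay in a misread stretch. At an unadjusted p below 0.05 there were 12 of 74, against 19.5% of all gene features, of which 13.6% were higher and 5.94% lower. With the stretches left out, 2 of 58 features were called higher, against 6.69% of all features, and 1 lower, against 1.51% (8.2% in either direction). At an unadjusted p below 0.05 there were 3 higher and 9 lower among the 58, against 18.8% and 6.42% of all features (25.2% in either direction). Counted by gene, 2 of the 39 above background were called higher, against 13% of all genes, and 1 lower, against 2.72%. Of the brightest 1615 genes 117 were called higher and 84 lower. Counts of 2 and 1 are too few to set apart from these shares. Psmb10 had a single feature. One of the 2 features of Psmb8 and 1 of the 2 of Psmg2 were called, and the other of each pointed the same way. When replicate numbers entered either fit as a block, 0 proteasome features were called, and likewise when any 1 of the 4 pools was left out of either fit.

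All 3 immunoproteasome subunits above background read higher in both db/db pools than in either db/+ pool. Psmb8, the inducible counterpart of the chymotrypsin-like subunit Psmb5, read 14.93 and 15.02 in the db/db pools, against 14.12 and 14.25 in the db/+ pools. The groups did not overlap, and the log2 fold change was 0.79 ± 0.11 (SE, n = 2 pools per group; limma adjusted p = 0.0758 and 0.0285). Its other feature read 14.62 and 14.42 in db/db, against 13.87 and 13.50 in db/+, a log2 fold change of 0.84 (adjusted p = 0.056 in the second fit). Psmb10, the counterpart of the trypsin-like subunit Psmb7, read 14.09 and 14.14 in db/db, against 13.06 and 13.35 in db/+. Again both db/db pools lay above both db/+ pools, with a log2 fold change of 0.91 ± 0.13 (SE, n = 2 pools per group; limma adjusted p = 0.0896 and 0.0324). Psmb9, the counterpart of the caspase-like subunit Psmb6, read 14.96 and 14.51 in db/db, against 14.24 and 14.31 in db/+. It too was higher in both db/db pools, but its db/db pools differed by more than those of the other members of the trio. Its log2 fold change was 0.46 (95% interval -0.01 to 0.93; limma adjusted p = 0.329 and 0.206). Psmb11, the thymus-specific subunit, was at background, at 6.17 and 6.28 in db/db and 6.74 and 6.27 in db/+.

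None of their constitutive counterparts passed the threshold in either direction. Psmb5 read 14.12 and 14.09 in db/db, against 14.36 and 14.52 in db/+, with a log2 fold change of -0.34 (95% interval -0.62 to -0.06; limma adjusted p = 0.22 and 0.142). Psmb6 read 13.70 and 13.47 in db/db, against 14.06 and 13.84 in db/+, with a log2 fold change of -0.36 (95% interval -0.73 to 0.01; limma adjusted p = 0.314 and 0.205). In both genes the db/db pools lay below the db/+ pools without passing the threshold. Psmb7 read 13.75 in both db/db pools, between the 13.66 and 13.84 of the db/+ pools (95% interval of the log2 fold change -0.30 to 0.29). Within each array the normalization is shared, so the change of a subunit relative to its counterpart depends less on the scaling between arrays. The fold change of Psmb8 exceeded that of Psmb5 by 1.12 ± 0.06 in log2, that of Psmb9 exceeded Psmb6 by 0.83 ± 0.18, and that of Psmb10 exceeded Psmb7 by 0.91 ± 0.06 (SD between pools, n = 2 per group). In all 3 pairs both db/db pools lay beyond both db/+ pools, for which an exact two-sided permutation test gives p = 0.333, the smallest that 2 against 2 pools allow. These pairs share the same 4 arrays and are not independent.

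**Figure D1:**
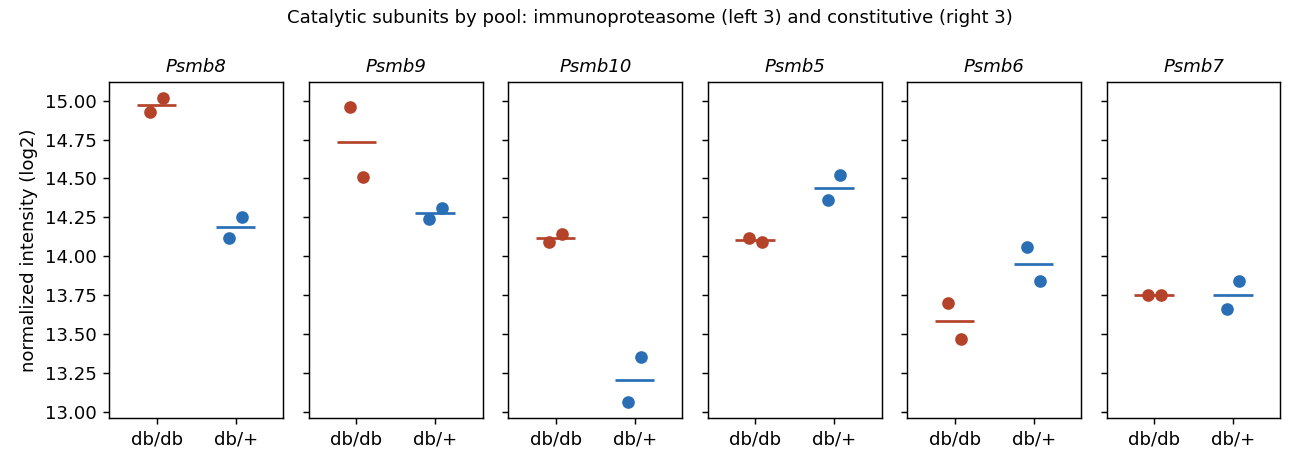
Normalized log2 intensity (vertical axis) of the 3 immunoproteasome subunits and their 3 constitutive counterparts in each pool, with the db/db pools left of the db/+ pools; points are pools and lines are group means. Psmb8, Psmb9 and Psmb10 were higher in both db/db pools, Psmb5 and Psmb6 were lower in both, and the pools of Psmb7 overlapped.

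The stretches of the genome just before these genes are shown because the inducible and the constitutive subunits have different known regulators. The interferon gamma activated site was searched as TTCNNNGAA. Loss of proteasome activity induces the constitutive genes through the factor Nfe2l1, which binds elements that hold TGACNNNGC. The 200 bases before the first RefSeq start listed for each gene in build GRCm38.p6 are given 5′ to 3′ on the strand of the gene. Matches to either motif, on either strand, are in capitals.
Psmb8, chr17:34197995-34198194, plus strand: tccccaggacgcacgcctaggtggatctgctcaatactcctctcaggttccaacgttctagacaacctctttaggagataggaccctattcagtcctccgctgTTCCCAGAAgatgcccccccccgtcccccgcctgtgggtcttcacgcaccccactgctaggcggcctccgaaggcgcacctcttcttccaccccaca
Psmb9, chr17:34187331-34187530, minus strand: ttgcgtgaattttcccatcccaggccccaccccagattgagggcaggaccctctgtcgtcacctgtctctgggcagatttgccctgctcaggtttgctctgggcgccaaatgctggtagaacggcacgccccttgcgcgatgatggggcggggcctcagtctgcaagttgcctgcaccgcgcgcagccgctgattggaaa
Psmb10, chr8:105938393-105938592, minus strand: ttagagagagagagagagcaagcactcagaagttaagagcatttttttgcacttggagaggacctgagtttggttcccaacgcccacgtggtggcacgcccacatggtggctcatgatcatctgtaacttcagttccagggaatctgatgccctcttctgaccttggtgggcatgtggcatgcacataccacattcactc
Psmb5, chr14:54617996-54618195, minus strand: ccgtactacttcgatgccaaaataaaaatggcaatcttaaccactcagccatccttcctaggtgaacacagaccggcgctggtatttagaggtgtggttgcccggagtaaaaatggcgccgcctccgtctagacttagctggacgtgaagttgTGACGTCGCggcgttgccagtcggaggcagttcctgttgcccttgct
Psmb6, chr11:70525157-70525356, plus strand: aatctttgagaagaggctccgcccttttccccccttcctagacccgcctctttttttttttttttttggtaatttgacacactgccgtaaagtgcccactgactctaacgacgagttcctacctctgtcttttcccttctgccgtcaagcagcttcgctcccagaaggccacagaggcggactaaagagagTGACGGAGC
The capitals mark TTCNNNGAA in Psmb8, at bases -97 to -89 from the start, and TGACNNNGC in Psmb5, at -47 to -39, and in Psmb6, at -9 to -1. Psmb9 and Psmb10 held neither motif in the stretch shown. Over the 250 bases before the start, TTCNNNGAA was present in 2 of 39 proteasome genes with an entry in the RefSeq table, Psmb8 and Psmg1, and in 7.02% of 32851 annotated starts. TGACNNNGC was present in 5, namely Psmb5, Psmb6, Psmc6, Psmd12 and Psmd9, and in 10.2% of starts. The interferon-stimulated response element, searched on both strands as GAAA, a pair of any bases and GAAA, was present in 3, namely Psmb3, Psmd4 and Psmd9, and in 2.98% of starts. A proteasome gene was counted where any of its listed starts held the motif, whereas the shares are over single starts, so the 2 are not strictly alike. Each motif was searched separately, and overlaps between matches were not merged. A match is a run of letters and not a site shown to be bound.

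Of the genes that act with the immunoproteasome in antigen presentation, Tapbp and Tap2 rose on their brightest feature in the second fit. Psmb9, Tap1, Psmb8 and Tap2 lie next to each other in this order on mouse chromosome 17 in RefSeq GRCm38.p6, within the MHC. Tap2, a subunit of the transporter that carries peptides into the endoplasmic reticulum, read 12.45 and 12.23 in db/db, against 11.61 and 11.50 in db/+ (log2 fold change 0.78; limma adjusted p = 0.0954 and 0.0369). Tapbp, the tapasin that loads class I molecules, read 13.85 and 13.81 in db/db, against 12.98 and 12.94 in db/+ (log2 fold change 0.88; limma adjusted p = 0.0613 and 0.0216). Both stood above their db/+ level in both db/db pools, and both passed in the second fit. Over all gene features Tapbp missed the threshold as reported and passed with no background correction and in the value table of the authors (limma adjusted p = 0.0496 in each). When any 1 pool was left out of the second fit, 0 features of any gene were called, these included. Of 13 listed genes of peptide loading on MHC class I, 10 had a feature there. By the brightest feature of each, Tapbp and Tap2 rose and none fell, against 13% and 2.72% of all genes above background. The median log2 fold change of the 10 was 0.41, against 0.20 for all genes above background and 0.02 for the brightest 1615 genes. Of these 1615 genes 117 were called higher and 84 lower in the second fit. A count of 2 of 10 is too few to set apart from either share. Dimmer features of H2-K1 and B2m were called higher in the second fit, 2 of 10 and 1 of 10. The features ranged from 0.31 to 1.45 for H2-K1 and from -0.31 to 1.63 for B2m. On their brightest features these genes differed by 0.64 and 0.56 (limma adjusted p = 0.275 and 0.365 in the second fit). Erap1, the peptidase that trims peptides in the endoplasmic reticulum, went the other way on a dim feature, with 7.12 and 7.45 in db/db and 7.68 and 8.12 in db/+ (limma adjusted p = 0.284 and 0.159). All features of Tap1 lay in misread stretches.

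Of 7 genes that regulate transcription of proteasome genes with a feature outside the stretches, out of 9 listed, 2 lay at background. On its brightest feature 1 rose in the second fit, too few to set apart from the 13% of all genes above background. This was Ngly1, the glycanase that activates Nfe2l1, at 13.59 and 13.63 in db/db and 12.95 and 13.11 in db/+ (log2 fold change 0.58; limma adjusted p = 0.108 and 0.0491). Its other feature differed by 0.12 and was not called. The call of Ngly1 was lost when misread stretches were found within a genotype only (limma adjusted p = 0.0511) and when any 1 pool was left out. Irf1, an interferon-induced factor of the immunoproteasome genes, read 15.28 and 15.26 in db/db, against 15.74 and 15.45 in db/+ (log2 fold change -0.32; limma adjusted p = 0.336 and 0.232). Its 3 features lay on both sides of 0, from -0.32 to 0.23, so no direction can be given. Irf8 read 14.66 and 15.12 in db/db, against 14.61 and 14.31 in db/+ (limma adjusted p = 0.412 and 0.285). Nfe2l1 itself differed by -0.24 and Nlrc5, an activator of class I genes, was at background. Nfe2l3 was also at background on its brightest feature, while its dimmer one, at 0.61, was called higher in the second fit.

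The constitutive beta subunits had a median log2 fold change of -0.35 over 6 genes, none above 0. Besides the active subunits these were the structural subunits Psmb4, at -0.06, Psmb3, at -0.49, and Psmb1, at -0.56. Psmb3 lay below its db/+ level in both db/db pools, at 14.51 and 14.46 in db/db and 15.27 and 14.68 in db/+. Psmb1 rested on 1 pool, since it read 14.63 and 13.27 in db/db and 14.55 and 14.47 in db/+, and without db/db pool 2 its log2 fold change was 0.12. Psmb2 had a feature in a misread stretch alone.

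In the alpha ring, which gates the core, the median was -0.22 over 4 genes. Psma7 read 15.06 and 14.79 in db/db, against 15.74 and 15.27 in db/+ (log2 fold change -0.58, 95% interval -1.11 to -0.04; limma adjusted p = 0.298 and 0.172). Psma4 read 14.62 and 14.82 in db/db, against 15.15 and 15.08 in db/+ (log2 fold change -0.40, 95% interval -0.71 to -0.09; limma adjusted p = 0.204 and 0.12). Both lay below db/+ in both db/db pools, and the second feature of Psma4 differed by -0.14. Psma2 differed by -0.03. Psma3 read 14.30 and 14.49 in db/db, against 13.71 and 14.49 in db/+, so its groups overlapped, and its next feature differed by -0.02. The feature of Psma3 that was called over all gene features read 10.20 and 10.23 in db/db and 8.54 and 8.33 in db/+ (log2 fold change 1.78; limma adjusted p = 0.0421), unlike the other features of the gene. Psma8, the testis-specific subunit, was at background.

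The 6 ATPases of the cap, the motor ring that unfolds substrates, had a median log2 fold change of -0.24, and 5 lay below their db/+ level in both db/db pools. Psmc5 came closest to the threshold, at 13.56 and 13.70 in db/db and 14.19 and 14.17 in db/+ (log2 fold change -0.55 ± 0.10, SE; limma adjusted p = 0.107 and 0.0502), and it passed in the 2 settings named above. Psmc6 read 15.03 and 14.65 in db/db, against 15.90 and 15.22 in db/+ (log2 fold change -0.72; limma adjusted p = 0.34 and 0.204). On 1 of its 2 db/+ arrays the spot was at the scanner maximum, where the intensity is a lower limit, and without 1 pool the log2 fold change was -1.06 to -0.38. Psmc4 differed by -0.33 on its brightest feature and by -0.32 on the other. Psmc2 and Psmc1 differed by -0.14 and -0.11. Psmc3 was the exception, at 13.06 and 13.43 in db/db and 12.90 and 12.92 in db/+ (log2 fold change 0.34; limma adjusted p = 0.393 and 0.279).

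The 10 measured non-ATPase subunits of the cap showed no common direction, with a median log2 fold change of -0.01, 4 above 0 and 6 below. Psmd2, the scaffold that receives ubiquitin-like domains, read 14.91 in both db/db pools, against 15.62 and 15.25 in db/+ (log2 fold change -0.52, 95% interval -0.93 to -0.11; limma adjusted p = 0.232 and 0.127). Its other feature read higher in db/db by 0.35, so the features of this gene disagreed. Psmd13 read 8.50 and 9.23 in db/db, against 8.07 and 8.35 in db/+ (log2 fold change 0.65; limma adjusted p = 0.38 and 0.242), on a dim feature. Psmd14, the deubiquitinase of the cap, read 14.46 and 14.31 in db/db and 14.31 and 14.48 in db/+ (95% interval of the log2 fold change -0.32 to 0.31). Its dimmer features differed by -0.06 and -0.45. The latter read 8.49 and 8.06 in db/db, against 8.66 and 8.79 in db/+, and was not called. The ubiquitin receptor Psmd4 differed by 0.22 and Psmd1 by 0.08. For Psmd12 the brightest feature differed by -0.27 and a dimmer one by 0.69, and the remaining Psmd3, Psmd7, Psmd8 and Psmd11 lay between -0.38 and 0.21.

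**Figure D2:**
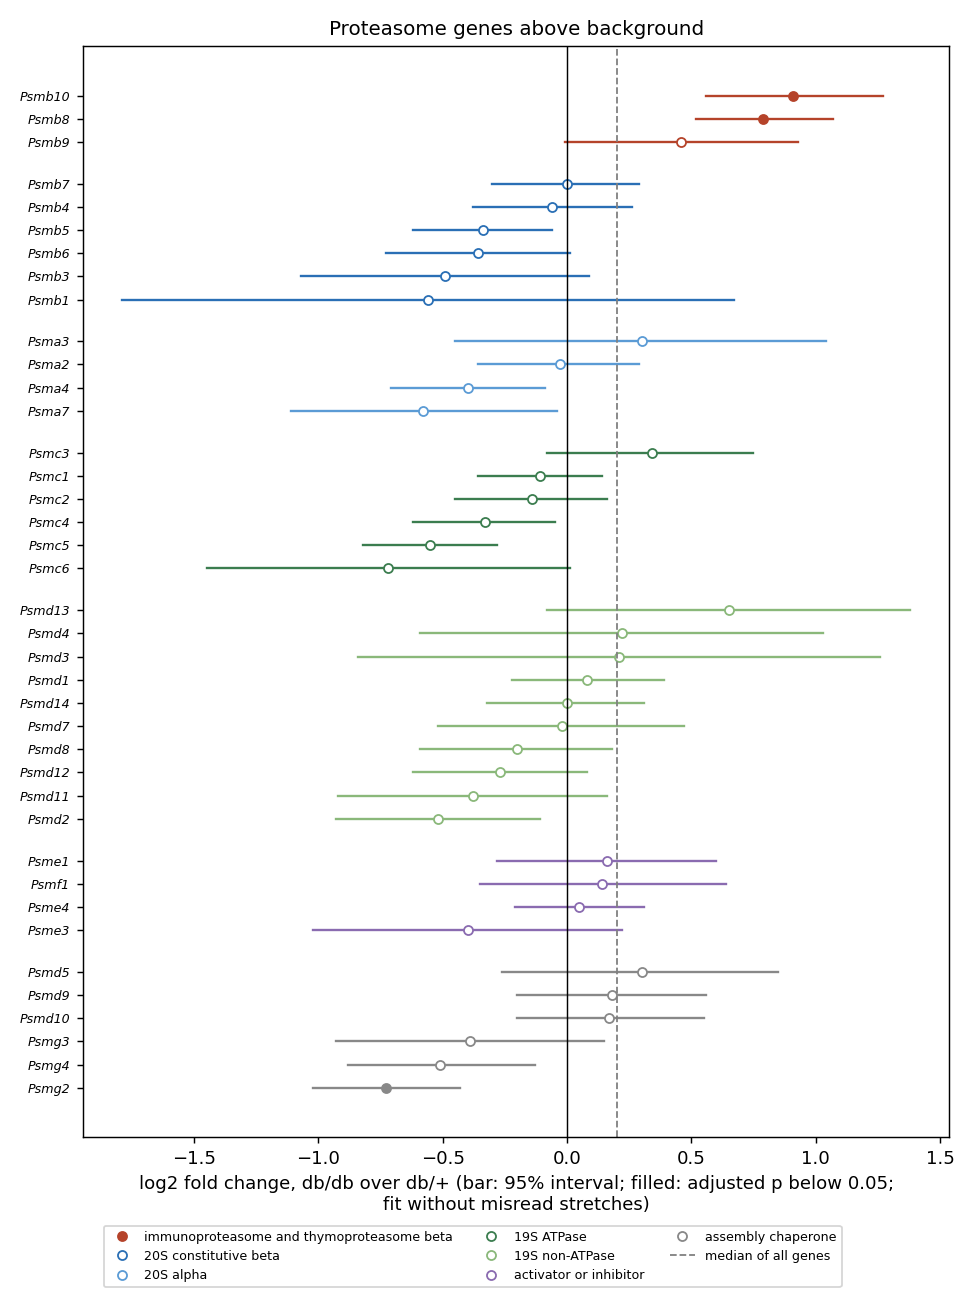
Log2 fold change, db/db over db/+, of the 39 proteasome genes above background (horizontal axis), ordered by subgroup and by size, with bars for the 95% interval of the fit without misread stretches, filled points for an adjusted p below 0.05 and a dashed line at the median of all genes, 0.20. The filled points are Psmb10, Psmb8 and Psmg2, and no core or cap subunit is filled.

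None of the activators or the inhibitor passed the threshold. Psme1, a subunit of the activator induced by interferon gamma, read 15.39 and 15.55 in db/db, against 15.12 and 15.50 in db/+ (log2 fold change 0.16, 95% interval -0.28 to 0.60; limma adjusted p = 0.677 and 0.637). Its groups overlapped. The log2 fold change of Psme1 was 0.39 under median scaling, 0.36 under cyclic loess and -0.03 to 0.35 without 1 pool. Psme3, the nuclear activator, read 9.64 and 10.21 in db/db and 10.18 and 10.48 in db/+ (log2 fold change -0.40; limma adjusted p = 0.497 and 0.384). Psme4, which caps the core without ATP, read 14.45 and 14.48 in db/db and 14.37 and 14.47 in db/+, and its 4 features lay between 0.00 and 0.15. Psmf1, an inhibitor of the core in vitro, differed by 0.14 on its brighter feature and by -0.76 on its dimmer one, so no direction can be given.

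Among the assembly chaperones the factors of the core lay below 0, and those of the cap lay near the median of all genes, 0.20. Psmg2, which pairs with Psmg1 to hold the alpha ring while it forms, read 13.88 and 13.71 in db/db, against 14.56 and 14.48 in db/+ (log2 fold change -0.73 ± 0.11, SE; limma adjusted p = 0.0892 and 0.0352). Its other feature read 13.89 and 13.97 in db/db, against 14.30 and 14.43 in db/+ (limma adjusted p = 0.0818 in the second fit). Psmg4 read 14.20 and 13.93 in db/db, against 14.66 and 14.48 in db/+ (log2 fold change -0.51; limma adjusted p = 0.209 and 0.112), and its partner Psmg3 differed by -0.39. All 3 core chaperones with a feature outside the stretches lay below their db/+ level in both db/db pools. The cap chaperones Psmd5, Psmd9 and Psmd10 differed by 0.30, 0.18 and 0.17, and the groups overlapped for each (limma adjusted p = 0.474 to 0.539 in the second fit). Psmd5 lay at 0.02 to 0.58 without 1 pool, and the 3 features of Psmd9 lay between -0.01 and 0.34.

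Taking position alone, both db/db pools lay above both db/+ pools for 5 of the 39 genes above background, against 48.6% of all genes, and below for 16, against 18%. The 5 were Psmb8, Psmb9, Psmb10, Psmc3 and Psmd13. The 16 were 13 core and cap subunits and the 3 chaperones Psmg2, Psmg3 and Psmg4. Since these members are bright, the brightest 1615 of all 16145 genes with a usable feature are the closer background. There the median log2 fold change was 0.02, with 48.0% below 0, and both db/db pools lay below for 31.8%. Of the core and cap genes 76.9% were below 0 and 13 of 26 had both db/db pools below.

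**Figure D3:**
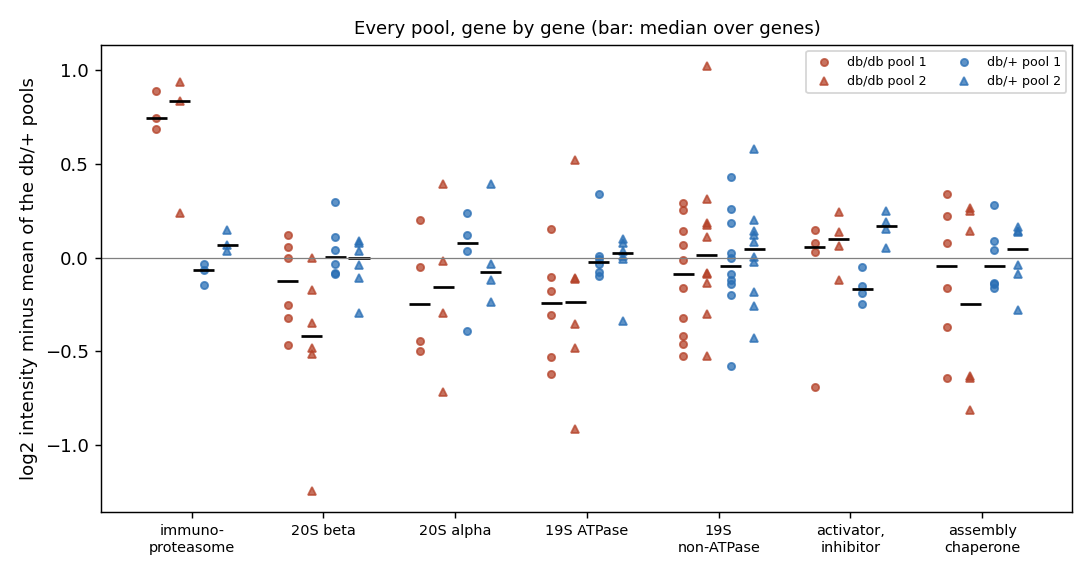
Log2 intensity of each proteasome gene above background minus the mean of its db/+ pools (vertical axis), for each pool and subgroup, with db/db pools left of db/+ pools and bars at the median over genes. The immunoproteasome genes of both db/db pools lie above the db/+ pools, and most beta and ATPase genes of the db/db pools lie below 0.

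The gap between inducible and constitutive subunits was read under each processing. The median of all genes above background was 0.20 under quantile normalization, 0.06 under median scaling, 0.06 under cyclic loess and 0.00 when the arrays were normalized again without the misread stretches. Under these settings the core and cap median was -0.17, -0.17, -0.19 and -0.27, and that of Psmb8, Psmb9 and Psmb10 was 0.79, 0.85, 0.85 and 0.73. Their difference was 0.97 as reported and 0.91 to 1.07 over all alternatives run, the 4 that leave out a pool included. The core and cap median lay below that of all genes in every setting run. The count of core and cap genes below 0, 20 of 26 as reported, was 17 under median scaling and under cyclic loess. It was 21 with arrays normalized again and 18 to 21 without 1 pool.

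**Figure D4:**
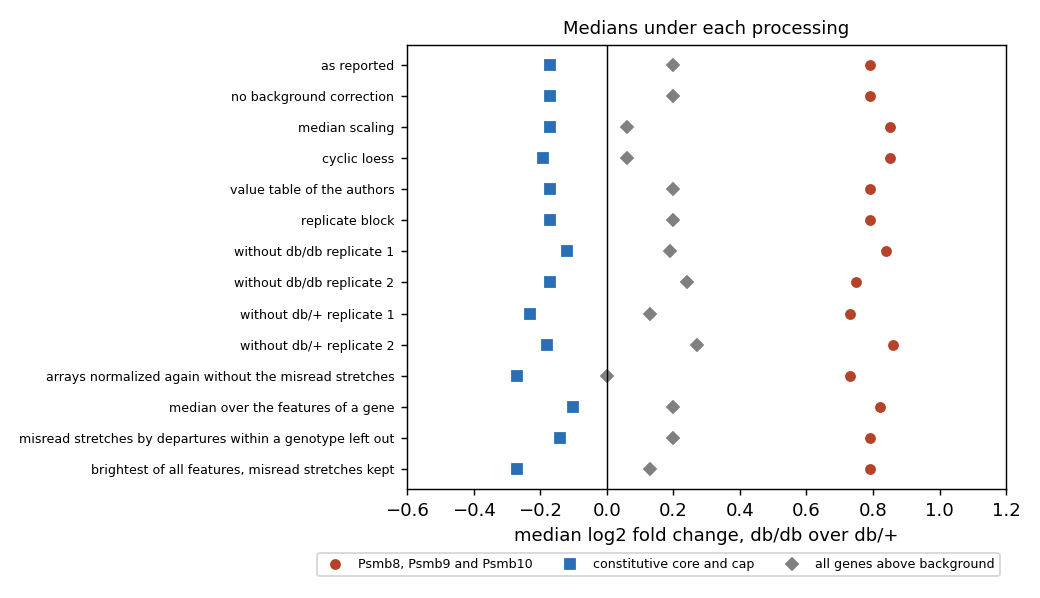
Median log2 fold change, db/db over db/+ (horizontal axis), of Psmb8, Psmb9 and Psmb10, of the constitutive core and cap and of all genes above background, under each processing (vertical axis). The 3 sets keep their order in every row, with the immunoproteasome between 0.73 and 0.86.

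Of proteins of the proteasome with other names, none of 9 with a feature outside the stretches, out of 11 listed, passed the threshold in either fit, and 1 was higher and 1 lower at an unadjusted p below 0.05 in the second fit. Txnl1, a thioredoxin of the cap, read 10.51 and 10.71 in db/db, against 11.01 and 11.05 in db/+ (limma adjusted p = 0.186 and 0.105). Ecpas, a scaffold that tethers proteasomes, read 14.01 and 14.07 in db/db, against 13.68 and 13.82 in db/+ (limma adjusted p = 0.263 and 0.185). Its 5 features lay on both sides of 0, from -0.41 to 1.10. Usp14, a deubiquitinase of the cap, differed by -0.36 (limma adjusted p = 0.428 and 0.309) and on its other feature by 0.26. Pomp, the chaperone of the beta ring, read 15.09 and 14.74 in db/db and 15.17 and 15.09 in db/+ (limma adjusted p = 0.547 and 0.476). Of 7 genes of ubiquitin supply and delivery with such a feature, out of 15 listed, none passed either, and 3 were lower at an unadjusted p below 0.05 in the second fit. These were the shuttle factors Ubqln4, at -0.56, and Rad23b, at -0.36, and the activating enzyme Uba6, at -0.28 (limma adjusted p = 0.0865, 0.141 and 0.156 in the second fit). The 5 features of Uba6 lay on both sides of 0, from -0.47 to 0.14.

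For 6 of the 47 genes, Psma1, Psma5, Psma6, Psmb2, Psmd6 and Psmg1, every feature lay in a misread stretch. Psma1 read 15.25 and 11.34 in the db/db pools and 14.75 and 15.35 in the db/+ pools, and Psma5 read 15.61 and 11.21 in db/db and 15.90 and 15.88 in db/+. In Psma6 and Psmb2 the low pool was the other db/db one, at 10.03 and 10.41, while Psmg1 read 8.20 and 6.88 in db/db, against 14.16 and 8.52 in db/+, with db/+ pool 1 standing high. Each of these departures was in 1 array, and no direction can be read from them. Psmd6 departed by less, at 14.04 and 14.12 in db/db and 12.63 and 14.09 in db/+.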

How the data were processed

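Median foreground intensities of 4 one-colour arrays were analysed in R 4.3.3 with limma 3.58.1. Per the file headers, the authors deposited linear intensity with no background subtraction. A further table that they deposited is in log2 and matched quantile-normalized log2 raw intensities to within 5e-09. The submitters' processing notes name limma. The tables name no genes, so features were placed on the grid by a layout inferred earlier from these data, in which features of 1 transcript differed from their median by 0.785 log2 on average, against 1.392 when row numbers were taken as feature numbers.

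Intensities were corrected by normexp (offset 50), log2 transformed and quantile normalized. Each gene feature was tested with lmFit and eBayes, two-sided, with Benjamini-Hochberg adjustment and a threshold of 0.05, over all features and again outside misread stretches. Spots were off where 1 array departed by over 2 log2 units from the other 3 (their median). Lines of 266 spots were dropped with over 5% off in an array, and windows of 15 spots where at least 3 were. This rule uses the values tested and lowers the spread left for the test. Fits were tested on simulated data.

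The members, gene lists and rules were chosen with earlier results of these data known. Named were the catalytic subunits, activators and inhibitor, the extremes and smallest p of each other subgroup, called members and up to 3 genes per companion list. Lists of Treg, dendritic, NK and erythroid markers were also read. Of 3 Treg genes Il2ra was called lower in the second fit, at -0.67 in log2. Foxp3 and Ikzf2 differed the other way, by 0.74 and 0.44, and were not called. Of 4 dendritic, 3 NK and 2 erythroid genes with a usable feature none was called. Labels do not tie replicate numbers to the 2 experiments, and deviations of same-numbered pools correlated at -0.05, so the numbers were not taken to pair samples. The number of arrays limits the precision.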

Additional observations from a re-analysis of the deposited data

How the results depend on the processing

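Calls depended on the fit more than fold changes did. Over all gene features 336 were called, 195 higher and 141 lower. The count was 149 under cyclic loess, 2089 with the misread stretches left out, 2173 with stretches found by departures within a genotype only, and 0 with the replicate block and without any 1 pool (0 to 0; 5146 and 5373 to 7565 features had an unadjusted p below 0.05). The split turned to 126 higher and 270 lower under median scaling, 58 and 91 under cyclic loess and 90 and 135 with dim features left out. Of proteasome features 1 was called over all gene features, 3 with either rule for misread stretches left out, and 0 under median scaling, cyclic loess, the replicate block and with dim features left out, and 0 without any 1 pool. Outside the stretches the 3 calls became 0 with the replicate block (adjusted p = 0.0646 for Psmb8, 0.0638 for Psmb10 and 0.0714 for Psmg2) and 0 without any 1 pool (0.0661 to 0.211 over these genes). They were 3 or 4 under the other settings: Psmb8 and Psmb10 were called in each, Psmg2 not under median scaling, where Psmf1 was, and Psmc5 was added, lower, with no background correction and with arrays normalized again. Of all features outside the stretches 2089 were called, 445 with the replicate block (398 higher and 47 lower) and 0 without any 1 pool. The split was 1267 and 655 under median scaling, 1146 and 551 under cyclic loess and 1101 and 826 with arrays normalized again (chosen after the data were seen, like the within-genotype rule and keeping misread stretches for gene values).

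Of 104 median values under alternatives 27 moved beyond the spread between pools. The median over all proteasome genes, -0.06, was -0.12 under median scaling, -0.13 under cyclic loess, -0.22 with arrays normalized again, -0.14 with misread stretches kept and -0.14 to -0.05 without 1 pool. The alpha median, -0.22, was -0.05, -0.08, -0.29 and -0.58 in that order, -0.15 as the median over features and -0.30 to -0.16 without 1 pool. The chaperone median, -0.11, was -0.27, -0.26, -0.33 and -0.39 in that order and -0.24 to -0.04 without 1 pool. With arrays normalized again the ATPase median was -0.32, the non-ATPase median -0.16 and the activator median -0.08, which was -0.13 as the median over features. Without 1 pool the beta median lay at -0.42 to -0.13, the ATPase median at -0.31 to -0.17, the non-ATPase median at -0.17 to 0.02 and the activator median at -0.07 to 0.22. Leaving out the misread stretches changes no median, since they are already left out there. Of 407 single-gene values, 8 changed sign. Without 1 pool Psmb7 lay at -0.10 to 0.09, Psme1 at -0.03 to 0.35, Psma3 at -0.09 to 0.69, Psmb1 at -1.24 to 0.12 and Psmf1 at -0.10 to 0.39. Psmf1 was also -0.10 under median scaling, -0.08 under cyclic loess and -0.31 as the median over features. The cause of these shifts was not tested.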
